A study of Pichia kudriavzevii with 6 samples.

Results

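Gene expression on succinic acid as the only carbon source was compared with expression on glucose as the only carbon source in Pichia kudriavzevii, a yeast that tolerates acid and is used for the production of organic acids. The comparison took in 4 of the 6 libraries of the series, chosen by their labelled medium. SoleS denotes the 2 libraries of cells given 2% succinic acid and no glucose. The 2 GS libraries came from cells given both at 2%, and their values are set beside the comparison where they show how it differs from the rest of the series. SoleG denotes the 2 libraries of cells given 2% glucose. All cells were of strain CY902 with URA3 deleted, so the controls carry the deletion too. The deletion removes orotidine phosphate decarboxylase, an enzyme of uracil synthesis, and serves as a selection marker. Cells were grown on glucose medium for 24 h, washed, put into the new medium at pH 5.0 and harvested 3 h later, at 30 °C. All levels on succinic acid are therefore those of cells taken out of glucose medium 3 h before, and how much glucose that medium still held is not known.

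Succinic acid is a dicarboxylic acid and an intermediate of the tricarboxylic acid cycle. To live on it, a yeast cell has to import it across the plasma membrane, oxidise it in the mitochondrion and build its sugars from cycle intermediates by gluconeogenesis, a route that largely runs glycolysis backwards. In Saccharomyces cerevisiae, glucose represses many genes for the use of other carbon sources, and in Kluyveromyces lactis and Candida albicans the plasma membrane carrier Jen2 imports dicarboxylic acids. The series as a whole aims to identify such transporters. The comparison of SoleS with SoleG shows what changed when one carbon source replaced the other, and since glucose was removed and succinic acid was added in the same step, the 2 changes of medium cannot be told apart in it.

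The files list 5464 genes under IDs made of PK and a number, with no gene names, and 0 of these IDs matched the reference gene table, which is of another strain. Transporters, cycle enzymes and URA3 could therefore not be looked up, no role can be given to any gene below, and genes are described by coding length, level and response. The count totals were 6959188 and 6024768 in SoleS and 6657238 and 6648094 in SoleG. The numbers of genes with a count were 5328 and 5331 in SoleS and 5329 and 5326 in SoleG. A count of 0 allows a level of up to 3 counts, which is 0.431 to 0.498 CPM (counts put on one scale for all library sizes), and this limit covers counting error only. The labels do not say whether replicates came from separate cultures, so every p-value measures only the spread between these libraries. A chi-square test of the counts over genes gave 3.98 per degree of freedom between the SoleS replicates and 5.69 between the SoleG replicates. Sampling noise alone gives about 1, so the replicates differed by more than repeated reading of 1 library. This value cannot tell separate cultures from separate preparations of 1 culture. The replicates were treated as separate samples.

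The medium changed which genes filled the pool of RNA counts. When each library was expressed as shares of its own total, 48.1% ± 0.2 of the counts lay on other genes in SoleS than in SoleG (SD over the 4 pairs of libraries, and the pairs share libraries). The single pairs gave 47.8% to 48.4%. The same measure was 3.03% between the SoleS replicates and 3.54% between the SoleG replicates. It was 11.6% ± 0.6 for GS against SoleG and 50.2% ± 0.2 for SoleS against GS. The SoleS libraries thus stood far from both media with glucose, and slightly further from GS, where single pairs gave 50.0% to 50.4%. Both distances were far outside the spread between replicates. This measure needs no scaling factor between libraries.

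Counts were also gathered on fewer genes in SoleS than in SoleG. The most abundant genes that together hold 50% of the counts numbered 142 and 144 in SoleS, 201 and 204 in GS, and 261 and 246 in SoleG. The groups do not overlap in this number. For 90% of the counts it took 2154 and 2170 genes in SoleS, 2131 and 2153 in GS, and 2313 and 2261 in SoleG, so at this level SoleS was no more concentrated than GS. The 100 most abundant genes of each library held 45.3% ± 0.1 of the counts in SoleS and 37.6% ± 0.7 in SoleG (SD, n = 2 each). At the very top the difference was small, with 17.2% ± 0.2 in the leading 10 genes of SoleS, 18.2% ± 0.3 in those of GS and 16.0% ± 0.4 in those of SoleG. An exact test of 2 against 2 libraries cannot go below p = 0.333, and these shares were not tested.

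**Figure D1:**
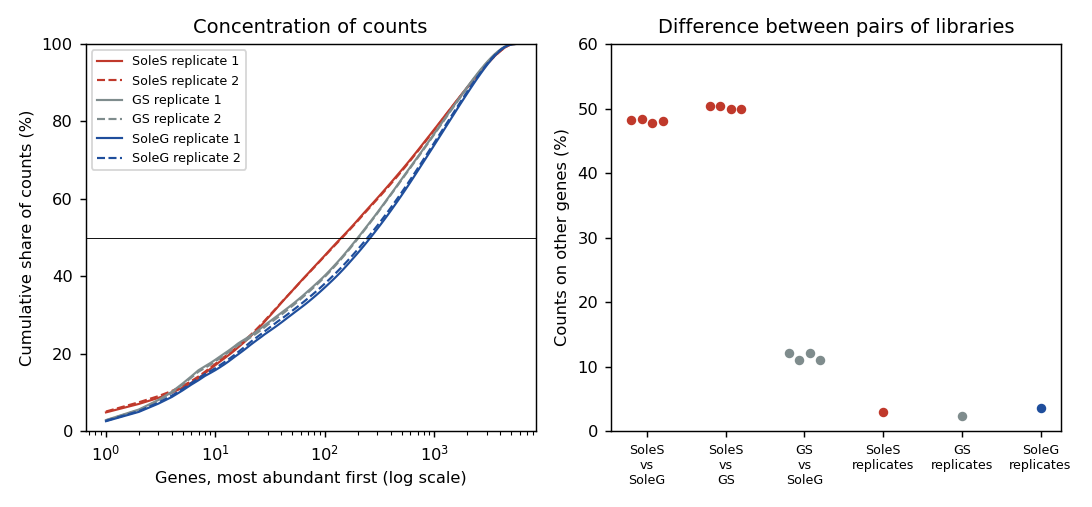
Left, cumulative share of counts (percent) against the number of genes, most abundant first on a log scale, for each library (red SoleS, grey GS, blue SoleG; dashed for replicate 2). The SoleS lines reach 50% at 142 and 144 genes, before GS at 201 and 204 and SoleG at 261 and 246. Right, percent of counts that lie on other genes for each pair of libraries, with 1 point per pair: pairs of SoleS with SoleG sit at 47.8% to 48.4% and replicate pairs at 2.37% to 3.54%.

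The counts gained in SoleS went to few genes, and those lost came from more. Of the gain, 22 genes carried 50% and 309 carried 90%. Of the loss, 50 genes carried 50% and 907 carried 90%. The 10 genes that gained most held 17.1% and 17.4% of the counts in SoleS, against 0.260% and 0.280% in SoleG. They were the 10 most abundant genes of SoleS, and in SoleG they ranked between 164 and 4883 by share of counts. The 10 genes that lost most held 2.54% in both SoleS libraries, against 15.8% and 16.3% in SoleG. In SoleG they had ranks between 1 and 11, and in SoleS between 16 and 4090. These sets were picked for their difference, and their shares carry no test.

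The 10 genes that gained most fell into separate sizes of change. In 5 of them the estimated increase was 757-fold to 1341-fold, and in the other 5 it was 16.5-fold to 39.0-fold, with none between. The 5 with the smaller increase had 1859 to 5646 counts in each SoleG library, and the 5 with the larger increase had 39 to 343. Both ranges lie above the limit of 3 counts. All 10 were picked for a large gain, so a lower count in SoleG largely fixes a larger fold among them. The 10 genes that lost most spanned 3.26-fold to 447-fold decreases. In GS, the gaining genes together held 0.359% and 0.351% of the counts and the losing genes 18.2% and 17.8%, so in the presence of glucose both sets stayed far nearer to SoleG than to SoleS. The GS share lay above both SoleG libraries for 4 of the gaining genes and 8 of the losing ones, and below both for 6 and 2.

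Each direction is shown by the 2 genes with the largest difference in mean CPM, after scaling with TMM factors, among genes that passed the test and did not overlap between groups. PK3770, with a coding length of 1134 bases, was the most abundant gene of both SoleS libraries. It had 336796 and 305108 counts in SoleS, 134 and 101 in GS, and 338 and 343 in SoleG. The SoleS libraries were far above all others, and the GS libraries were below those of SoleG. Its level was 51355 ± 1092 CPM in SoleS and 47.8 ± 1.4 CPM in SoleG (SD, n = 2 each), a difference of 10.07 ± 0.12 (SE) on the log2 scale with an adjusted p of 6.63e-26 in edgeR. By share of counts it was 1st in SoleS, whereas it ranked 3084 and 2997 in the SoleG libraries.

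PK4352 has a coding length of only 204 bases. It had 152292 and 144072 counts in SoleS, 56 and 82 in GS, and 219 and 223 in SoleG. As with PK3770, both SoleS libraries were far above the rest and GS was lowest. Its level was 23743 ± 1232 CPM in SoleS and 31.0 ± 1.0 CPM in SoleG (SD, n = 2 each), a difference of 9.58 ± 0.13 (SE) on the log2 scale with an adjusted p of 1.24e-25 in edgeR. Per kilobase of coding length it was the most abundant transcript of SoleS, at 112120 and 120659 CPM per kilobase, against 149 and 156 CPM per kilobase in SoleG. If counts are divided by coding length, this 1 gene made up 9.31% and 10.1% of all transcripts in SoleS and 0.0156% and 0.0162% in SoleG. Coding lengths hold no untranslated regions and the counting rule is not stated, so a level per length is least certain for a gene this short. Whether reads of a neighbouring or repeated feature were counted on PK4352 could not be checked, so the transcript share holds only if its counts are its own.

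PK0166, with a coding length of 1728 bases, was the most abundant gene of both SoleG libraries by share of counts. It had 9039 and 7545 counts in SoleS, 184665 and 167101 in GS, and 170580 and 176896 in SoleG. Both media with glucose were high and SoleS was low, with no overlap. Its level was 1323 ± 48 CPM in SoleS and 24402 ± 1090 CPM in SoleG (SD, n = 2 each), or 18.4 times lower in SoleS. The difference was -4.20 ± 0.09 (SE) on the log2 scale, with an adjusted p of 3.69e-22 in edgeR. It ranked 104 and 105 by share of counts in the SoleS libraries.

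PK1425, with a coding length of 1008 bases, was the most abundant transcript of SoleG per kilobase of coding length. It had 47521 and 40764 counts in SoleS, 192025 and 174277 in GS, and 160867 and 166479 in SoleG. It was 7051 ± 122 CPM in SoleS and 22988 ± 993 CPM in SoleG (SD, n = 2 each), or 3.26 times lower in SoleS. The difference was -1.71 ± 0.08 (SE) on the log2 scale, with an adjusted p of 2.25e-15 in edgeR. Although it fell, PK1425 remained among the leading transcripts, and it ranked 15 per kilobase in both SoleS libraries. By share of counts, PK1425 ranked 16 and 15 in the SoleS libraries, where PK0166 ranked 104 and 105. Large losses of counts therefore came both from a gene that left the leading ranks, PK0166, and from one that stayed near them, PK1425.

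**Figure D2:**
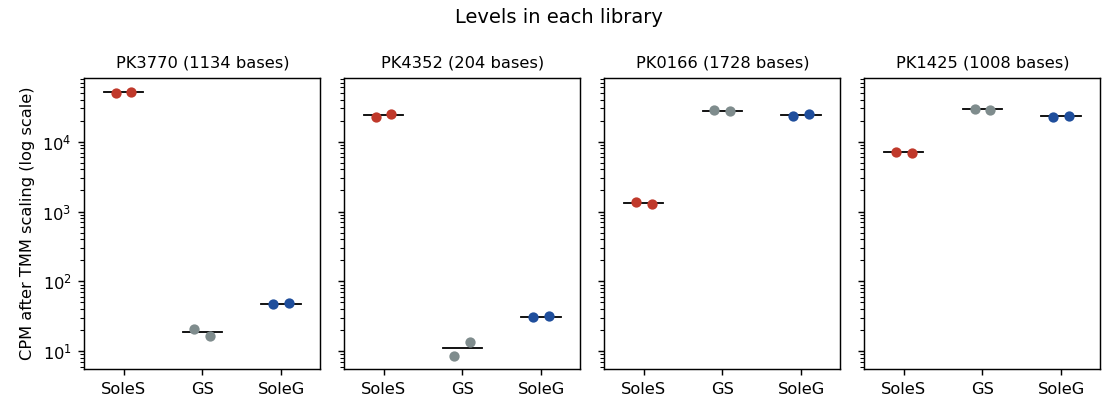
Level of PK3770, PK4352, PK0166 and PK1425 in each library, in CPM after TMM scaling on a log axis. Points are libraries and lines are means of 2; SoleS is the highest group for PK3770 (51355 CPM on average) and PK4352 (23743 CPM) and the lowest for PK0166 (1323 CPM) and PK1425 (7051 CPM).

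Beyond these leading genes, most of the transcriptome moved. Of 5280 genes tested, 4178 (79.1%) passed an adjusted p of 0.05, 2016 (38.2%) higher and 2162 (40.9%) lower in SoleS (edgeR quasi-likelihood test with Benjamini-Hochberg adjustment). Which direction led among called genes depended on the processing. Upper-quartile factors gave 2263 higher and 1924 lower, total counts 1744 and 2456, and the 4 libraries alone 2092 and 2071. Many of the 4178 changes were small: 1171 had an estimate below 1.5-fold and 1193 an estimate of 1.5-fold to 2-fold. The median change was 1.96-fold among the higher genes and 1.77-fold among the lower ones. For all tested genes, the median size of the edgeR log2 fold change between media was 0.70. The median difference between replicates was 0.11 in SoleS and 0.11 in SoleG, on log2(CPM + 0.5). Differences of more than 2-fold were found between the SoleS replicates in 11 genes and between the SoleG replicates in 29 genes. By the edgeR estimates, 1820 genes differed by more than 2-fold between the media. The values between media compare groups and those between replicates compare single libraries, so the 2 measures differ.

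A test against a margin gives a firmer count of large changes. With the change required to exceed 2-fold (edgeR's glmTreat, adjusted p below 0.05), 1367 genes (25.9%) were called, 726 (13.8%) higher and 641 (12.1%) lower. By contrast, 1814 genes had an adjusted p below 0.05 and an estimate of at least 2-fold, so 447 of them had a size that this test did not place beyond 2-fold. The 726 higher genes held 49.0% ± 0.2 of the counts in SoleS and 5.90% ± 0.03 in SoleG (SD, n = 2 each). The 641 lower genes held 7.80% ± 0.03 in SoleS and 43.2% ± 0.7 in SoleG. In GS the higher genes held 6.10% ± 0.02 and the lower genes 44.7% ± 0.1. Both sets were picked on the difference between SoleS and SoleG, so their shares in those 2 groups follow from the choice. The GS libraries took part in the choice through the filter, the scaling factors and the estimate of the spread. The typical member was of modest level: the median of the higher genes was 79.2 and 78.1 CPM in SoleS against 18.7 CPM in both SoleG libraries, and that of the lower genes 40.3 and 39.8 CPM in SoleS against 154 and 155 CPM in SoleG.

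**Figure D3:**
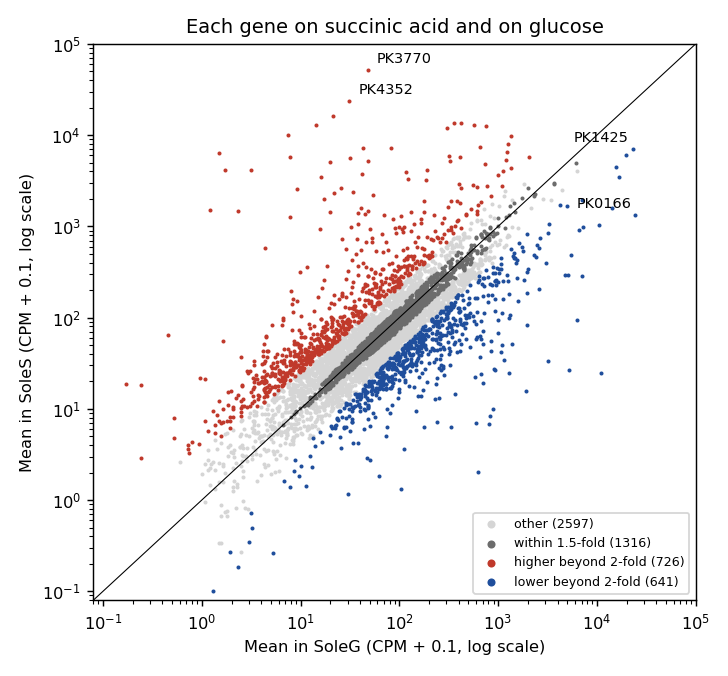
Mean level of each of the 5280 genes in SoleS (vertical) and SoleG (horizontal), in CPM + 0.1 on log axes, with the line of equal level. Red marks 726 genes higher and blue 641 lower beyond 2-fold, dark grey 1316 genes whose interval lies within 1.5-fold and light grey the other 2597; the red points reach furthest from the line.

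The largest changes were mostly increases. Among genes with an adjusted p below 0.05, 20 were at least 128-fold higher and 3 at least 128-fold lower in SoleS (edgeR estimates). Scaled by total counts alone, these became 19 and 5. In the range of 16-fold to 128-fold the directions were near even, with 45 genes higher and 39 lower. Below 2-fold, more genes were lower (1324) than higher (1040), and this lean held under each scaling tried, with 935 to 1145 higher and 1208 to 1418 lower. Which direction led among changes beyond 2-fold depended on the scaling: total counts gave 628 higher and 766 lower genes by glmTreat, and upper-quartile factors gave 836 higher and 561 lower. These scalings moved the median of all genes to -0.18 and 0.09 on the log2 scale, where TMM gave -0.03.

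**Figure D4:**
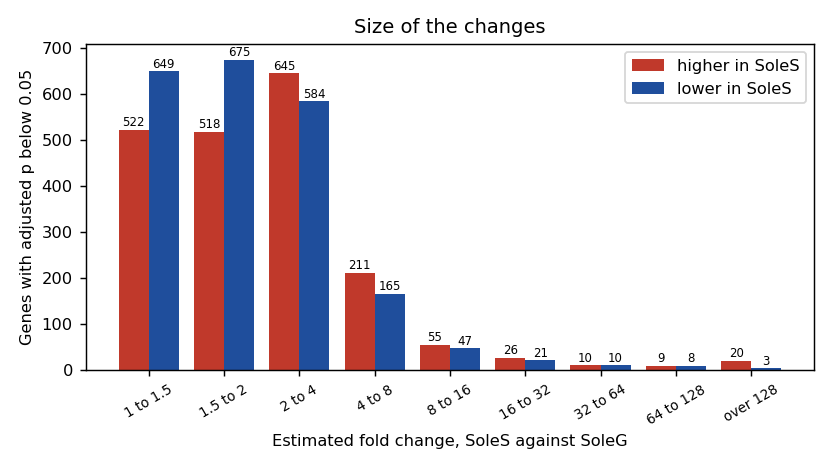
Number of genes with an adjusted p below 0.05 in classes of estimated fold change, for genes higher (red) and lower (blue) in SoleS than in SoleG, under TMM scaling. Lower genes lead below 2-fold (649 and 675 against 522 and 518), and in the last class, 128-fold and above, 20 genes are higher and 3 lower.

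Few of the large changes involved a gene at or near 0 in the other medium. Of the 726 higher genes, 1 had no count in a SoleG library, 4 had at most 3 counts in each SoleG library and 19 at most 10. Of the 641 lower genes, 3 had no count in a SoleS library, 6 had at most 3 counts in each SoleS library and 10 at most 10. Over all 5464 genes, 1 was at 0 in both SoleG libraries and counted in both SoleS libraries, and 1 was the reverse. No count was found in any of the 4 libraries for 122 genes. A count of 0 allows a level of up to 3 counts at this depth. Apart from the 4 higher and 6 lower genes named above, all were above 3 counts in at least 1 library of the medium where they were lower.

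Another group of genes differed little under TMM scaling. For 1316 genes (24.9%) the 95% interval of the fold change lay within 1.5-fold in either direction. Of these, 487 nevertheless had an adjusted p below 0.05, a small change measured precisely. Of the 1102 genes that did not pass the test, 829 were within 1.5-fold by their interval. The other 273 could have changed by more than 1.5-fold, and their lack of a call says nothing about stability. The 1316 genes held 18.3% ± 0.02 of the counts in SoleS, 19.2% ± 0.01 in GS and 20.7% ± 0.2 in SoleG. Their median level was 77.2 and 75.7 CPM in SoleS and 77.2 and 78.7 CPM in SoleG. Which genes belong to this group depended on the scaling. Of the 1316 genes, 1109 were also within 1.5-fold with upper-quartile factors and 981 with total counts. The intervals hold for single genes and were not adjusted for the number of genes tested.

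Precision rose with the level of a gene. In the 20% of genes with the lowest mean level over the 4 libraries (0.600 to 23.6 CPM), the median standard error of the log2 fold change was 0.22, 68.8% of genes were called and 7.29% were within 1.5-fold. In the 20% with the highest level (173 CPM and above), the median standard error was 0.08, 89.6% were called and 24.9% were within 1.5-fold. In the 3 groups of 20% between them, 25.3%, 32.5% and 34.7% were within 1.5-fold, from low to high, so this share did not keep rising with the level. Among genes beyond 2-fold, the lowest 20% had 212 higher and 58 lower, and the highest 20% had 202 higher and 210 lower.

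The list of leading transcripts was largely replaced. Ranked by counts per kilobase of coding length, the top 10 of SoleS and of SoleG had 1 gene in common, the top 100 had 29 and the top 500 had 330. Replicates shared 99 of 100 in SoleS and 95 of 100 in SoleG, and the top 100 of GS and of SoleG shared 74. Of the top 100 of SoleS, 72 were higher beyond 2-fold, 5 lower and 11 within 1.5-fold. Of the top 100 of SoleG, 6 were higher beyond 2-fold, 47 lower and 18 within 1.5-fold. Ranking by one medium favours genes that are high in it, so these counts are a description. The median log2 fold change was 2.25 in the SoleS list and -1.01 in the SoleG list, so the genes that lead on succinic acid had moved further than those that lead on glucose.

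Coding length differed between the directions. Of 793 tested genes of 2400 bases or more, 68 (8.58%) were higher and 119 (15.0%) lower beyond 2-fold. Of 928 genes under 600 bases, 130 (14.0%) were higher and 71 (7.65%) lower. Over all tested genes the shares were 13.8% and 12.1%. The order held with upper-quartile factors, which gave 77 higher and 96 lower long genes and 149 higher and 66 lower short ones. Total counts gave 51 and 141 for the long genes and 107 and 98 for the short ones. Of the 10 genes that gained most counts, 4 were under 600 bases, against 1 of the 10 that lost most.

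The average transcript was also shorter on succinic acid. The mean coding length per transcript, that is the count total over the sum of counts per base, was 868 and 860 bases in SoleS, 963 and 966 in GS, and 967 and 985 in SoleG. The SoleS libraries lay below all others. Most of this difference came from 1 gene: without PK4352 the values were 936 and 933 bases in SoleS, 963 and 966 in GS, and 967 and 985 in SoleG. The part that reads of another feature may have in the counts of PK4352 was not tested. RNA quality can shift counts between long and short genes. The files hold no measure of it, and its part in these length differences was not tested.

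Genes with consecutive ID numbers changed together more often than genes with distant numbers. Among pairs with adjoining numbers in which both genes changed by more than 2-fold, 150 were both higher, 107 both lower and 130 opposite, so 66.4% went in the same direction. At a distance of 2 the share was 53.4%, and at distances of 3 to 1000 it was between 47.1% and 55.5%. The Pearson correlation of log2 fold changes across pairs was 0.15 for adjoining numbers (5108 pairs), 0.04 at a distance of 2 and between -0.01 and 0.02 at all larger distances computed. Pairs share libraries and genes, so these values are descriptions. Higher genes formed 25 runs of 3 or more consecutive numbers, the longest of 6 genes, with log2 fold changes of 1.21 to 5.36. Lower genes formed 16 such runs, the longest of 5 genes, with log2 fold changes of -1.63 to -3.26. The files do not state that ID numbers follow position on the chromosomes. They do not say how reads from overlapping or near-identical genes were counted either, and the part of such reads was not tested.

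**Figure D5:**
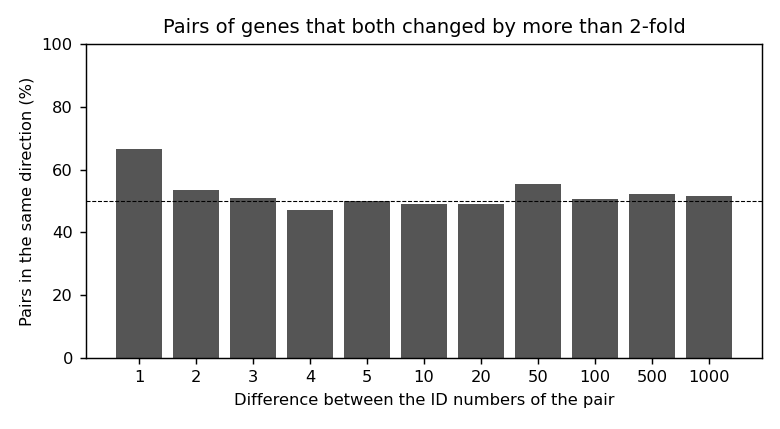
Percent of pairs that went in the same direction, among pairs of genes that both changed by more than 2-fold between SoleS and SoleG, against the difference between their ID numbers. The bar for adjoining numbers stands at 66.4% and the other bars at 47.1% to 55.5%; the dashed line marks 50%.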

How the data were processed

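RNA was sequenced from 6 libraries, 2 per medium. Per the submitters' processing notes, Bowtie2 2.2.5 was used. Which tool counted reads, how it treated strand, and on which genome build and annotation, is not given in the sources used here. The authors deposited 1 file per library with raw read counts per gene and the coding length of each gene in bases (all 5464 are multiples of 3), as per the file headers. The deposited FPKM values were not used. Blank lines were dropped.

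Low counts were filtered with filterByExpr: 5280 genes passed, and the 184 that did not held 0.00351% of all counts. After TMM scaling, 1 model with 3 groups was fitted to all 6 libraries (edgeR 4.0.16, R 4.3.3; estimateDisp, glmQLFit, glmQLFTest, glmTreat), which leaves 3 residual degrees of freedom. Adjusted p-values are Benjamini-Hochberg values over all tested genes. The standard error is the size of the log2 fold change over the square root of F, and 95% intervals use it with a t quantile. That quantile takes the total degrees of freedom of the fit, not the 3 residual ones alone. The total is larger because the spread of each gene is estimated with help from all genes, and the p-values rest on this too. The fit was also run on simulated counts in which few genes changed. That run cannot show how the fit behaves when most genes change, as they did here. Named genes are the 2 in each direction with the largest difference in mean CPM among non-overlapping called genes. Genes, lists and tests were chosen with earlier results of these data known. Alternatives were RLE, upper-quartile and total-count scaling, other filters, the 4 libraries alone, a replicate block, each library left out, DESeq2 1.42.0 and limma-voom (limma 3.58.1). Summaries used Python 3.11.15.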

Additional observations from a re-analysis of the deposited data

How the results depend on the processing

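No named gene changed direction under the alternatives run. These genes were picked for a large difference in the same data, so their direction and low p-values were largely set by that choice. The counts of changed genes, of genes beyond 2-fold and of genes within 1.5-fold moved by less than 1.5 times. Changed genes numbered 3913 to 3987 with a library left out and 3879 (DESeq2) to 4200 (total counts) otherwise, against 4178. Genes beyond 2-fold numbered 1288 to 1333 and 1245 (limma-voom) to 1397, against 1367, and genes within 1.5-fold 1089 to 1147 and 1208 to 1360, against 1316. A left-out library leaves its group with 1, which is assumed to vary like the others. Counts on other genes were 47.9% to 48.3% with a library left out, 49.1% after division by coding length and 43.5% without the 10 genes of highest mean share, against 48.1%. Without those 10 genes, 217.5 genes in SoleS and 365.0 in SoleG held 50% of the counts, a difference of -147.5 against -110.5 (143 and 253.5). After division by coding length the numbers were 94 and 198. It was -118 to -103 with a library left out. With the replicate number as a block, 4142 genes changed, 1358 were beyond 2-fold and 1290 were within 1.5-fold. Over genes, replicate differences correlated at -0.09 between SoleS and SoleG, so no difference shared by replicate number was seen. This value cannot tell whether libraries were prepared in pairs. Among the named genes, the largest adjusted p in any alternative was 1.54e-12 (PK1425). The log2 fold change ranged from 9.92 to 10.19 for PK3770, 9.43 to 9.70 for PK4352, -4.36 to -4.09 for PK0166 and -1.86 to -1.59 for PK1425. The gene lists planned for the case of named genes were not used, because the IDs carry no names.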
